A study of Mus musculus with 16 samples.

Results

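The diet effect was measured in the gonadal fat of control mice, which carry the floxed Mboat7 allele, have no Cre and so keep Mboat7. Its members are the 8 mice labelled Flox among the 16 mice of the series, chosen by genotype label alone: 4 were fed chow and 4 were fed a high-fat diet (HFD), both for 20 weeks. All 8 were male, on the C57Bl6/J background, and were fasted for 4 h before the tissue was taken and flash frozen. The other 8 mice of the series carry the same floxed allele together with Cre under the adiponectin promoter (ASKO, 4 on chow and 4 on HFD). They are used here only to set the diet effect of a separate set of animals beside that of the controls. The control mice lack the adiponectin Cre transgene, so these comparisons hold no group with Cre and an intact Mboat7. The mice are described only as age-matched, and their age at the start of feeding was not given in the sources used here. Messenger RNA was sequenced from the whole fat pad, and each value is in FPKM, fragments scaled to transcript length and library size. Values by mouse are given in the order of replicates 0, 1, 2 and 3 within a diet, and these numbers are used here only to name the mice.

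Gonadal fat stores triglyceride in adipocytes, which also secrete hormones such as leptin, adiponectin and adipsin. The pad further holds preadipocytes, fibroblasts, vessels, a mesothelial covering and leukocytes, many of them macrophages. In obese mice, macrophages gather around dying adipocytes in crown-like structures, take up their lipid and acquire a set of lysosomal and lipid-handling genes for which they are named lipid-associated macrophages.

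The deposited values carry no read counts, so depth was estimated from the spacing of low FPKM values over 1132 genes with a single transcript of at least 1000 bases. The chow libraries came to about 310000, 325000, 378000 and 392000 fragments, and the HFD libraries to about 431000, 326000, 327000 and 320000. These are rough figures that rest on an allowance of 200 bases per transcript; with no allowance the range was 288000 to 408000. Between 59.1% and 76.8% of the low values fell within 0.2 of a whole fragment, against 40% for values spread evenly. The fragment numbers were fitted to these same values, so a share above 40% is partly set by the fit and is no separate check. At this depth 1 fragment on a transcript of 1 kb was worth 2.32 to 3.23 FPKM, so values under a few FPKM rest on single fragments and a gene listed at 0 may still be expressed. The number of genes at 1 FPKM or more was 10282, 9770, 9973 and 10136 on chow and 10106, 10587, 10149 and 10240 on HFD. A transcript that overlaps ribosomal RNA genes, AY036118, took 15.2%, 20.7%, 9.6% and 14.5% of summed FPKM on chow and 16.6%, 32.6%, 12.6% and 15.3% on HFD, highest in HFD 1. The part of this share in the values of other genes was not tested. Across the genes tested, the correlation of log2(FPKM + 1) between 2 mice was 0.759 to 0.823 over the 12 pairs on the same diet and 0.718 to 0.775 over the 16 pairs on different diets, so no library stood as a copy of another.

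The labelled tissue was checked against its markers. Fabp4, the fatty acid binding protein of adipocytes, was among the most abundant genes on both diets, at 7641, 11820, 10714 and 7543 FPKM on chow and 8347, 4960, 6964 and 3303 FPKM on HFD. Plin1, the coat protein of large lipid droplets, was at 77.6, 109, 85.6 and 116 FPKM on chow and 45, 58.9, 37.2 and 57.4 FPKM on HFD. Neither gene passed the test between diets. Ucp1, the uncoupling protein of brown fat, was listed at 0 in all 8 mice. Of 14 epididymis and testis markers only Adam7 is in the table, at 0.736 FPKM in HFD 3 and at 0 in the other 7 mice. Liver transcripts varied widely among mice of the same diet: Alb, the gene of serum albumin, was at 37.8, 86.7, 146 and 8.07 FPKM on chow and 3.9, 114, 10.4 and 112 FPKM on HFD. All 8 liver genes tested were negative (median -0.69, and -1.51 to -0.1 when any 1 mouse was left out), and limma called 0 of them, with 0 at an unadjusted p under 0.05. Limma also called 0 of 3 erythroid, 2 skeletal muscle, 2 Schwann cell, 3 thermogenic and 1 pancreas genes tested, again with 0 at an unadjusted p under 0.05. A test between diets does not show a single mouse that stands apart. The thermogenic list summed to 2.785, 15.51, 24.88 and 2.836 FPKM on chow and 79.37, 9.069, 3.469 and 11.46 FPKM on HFD. The erythroid list summed to 7.385, 36.5, 33.27 and 16.67 FPKM on chow and 74.39, 0, 6.551 and 33.2 FPKM on HFD, so HFD 0 was highest in both. Mboat7, the lysophosphatidylinositol acyltransferase that these mice keep, was at 2.42, 4.33, 0.902 and 4.99 FPKM on chow and at 0, 0, 2.15 and 1.61 FPKM on HFD. The diets overlapped, with a difference of -1.16 in mean log2(FPKM + 1) (-2.63 with a pseudocount of 0.1; p = 0.114 by a 2-sided exact permutation test, in which 4 against 4 mice cannot go below 0.0286). Exons of Mboat7 overlap those of Tsen34, so its values are uncertain as well as low.

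To ask what 20 weeks of HFD did to this tissue, 10404 genes that reached 1 FPKM in 4 or more of the 8 mice were compared by limma on log2(FPKM + 1). The rises included some genes of macrophages and of the lysosome, and the falls included adipsin, adiponectin and single enzymes of glyceroneogenesis and detoxification. At a Benjamini-Hochberg adjusted p under 0.05 and a change over 0.5 on the log2 scale, here termed called, 210 genes were higher on HFD (2.02% of those tested) and 117 were lower (1.12%), with 1559 (15%) at an unadjusted p under 0.05. Counts in the gene lists below are to be read beside these shares. Their median log2 fold changes were 2.51 and -2.16, against -0.022 over all genes tested. Without any overlap between the diets, 564 genes were higher (5.42%) and 493 lower (4.74%), and 324 of the 327 called genes were of this kind. All fold changes are on the log2(FPKM + 1) scale, which understates the change of low genes. In 67 called genes every mouse of 1 diet was listed at 0, on chow in 53 and on HFD in 14. Such genes met the filter only through the diet in which they were higher, so the change itself admitted them to the test. They stay in the totals and in the list counts below, and include Fcgr1, Il7r, Tpsb2, Cxcl14, Isg15, Gsta4 and Rpl37. Since ribosomal protein genes such as Rpl37 were also listed at 0 in all 4 chow mice, no fold change is given for these 67 genes. Exons of another listed gene overlap 132 called genes (40.4%, against 39.1% of genes tested), and such genes are given as uncertain. The count of higher genes was 136 without chow 1, 122 without chow 2, 110 without HFD 1 and 123 without HFD 3. The count of lower genes was 68, 54, 48 and 55 without chow 0, 1, 2 and 3, 75 without HFD 1 and 77 without HFD 3. Every called gene kept its direction in each of these fits.

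**Figure D1:**
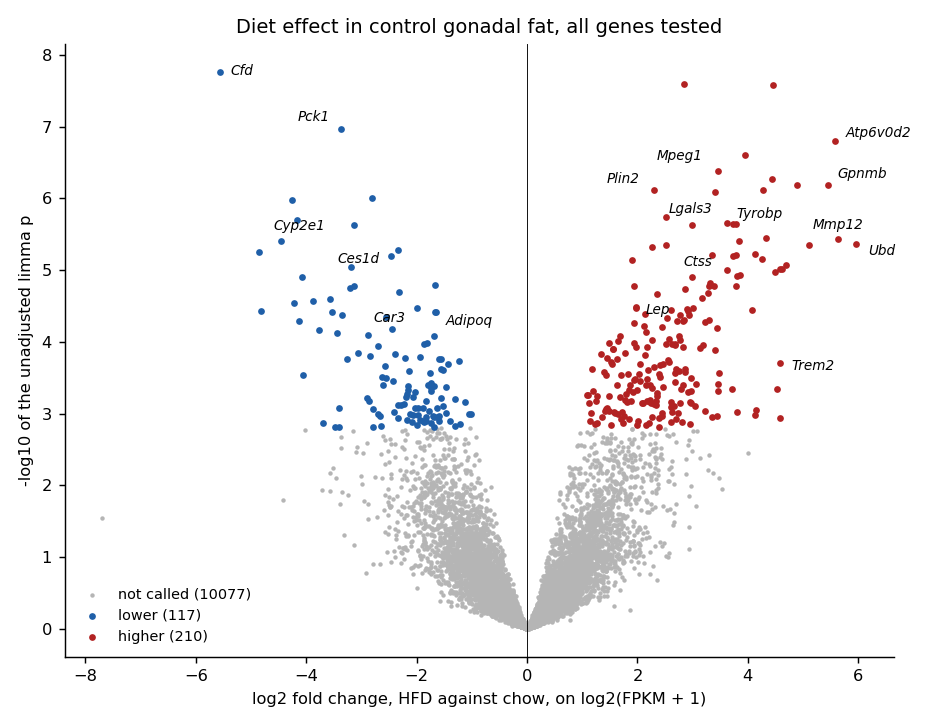
Each point is 1 of 10404 genes tested in the 8 control mice; the horizontal axis is the log2 fold change of HFD against chow on log2(FPKM + 1) and the vertical axis is -log10 of the unadjusted limma p. The 210 called higher genes (red) include Mmp12 at 5.62 and Atp6v0d2 at 5.57, the 117 called lower genes (blue) include Cfd at -5.56 and Pck1 at -3.37, and genes not called are grey.

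The plot of all genes by fold change and p places Cfd at the far end of the falls. Cfd encodes adipsin, the serine protease of the alternative complement pathway that adipocytes secrete. It was at 864, 2595, 941 and 1468 FPKM on chow and at 30.8, 26.6, 19.2 and 33.9 FPKM on HFD, a log2 fold change of -5.56 (SE 0.36, limma adjusted p = 8.94e-05). Adipoq, the gene of the insulin-sensitizing hormone adiponectin, was at 986, 1871, 1448 and 1351 FPKM on chow and 539, 367, 432 and 414 FPKM on HFD (-1.67, SE 0.25, adjusted p = 0.00524 by limma). Lep, which encodes the satiety hormone leptin, moved the other way, from 103, 181, 159 and 174 FPKM to 891, 505, 609 and 458 FPKM (1.98, SE 0.28, adjusted p = 0.00509 by limma). For neither gene did the diets overlap, and HFD 0 held the highest value of both among the HFD mice. Retn, the gene of resistin, was at 97.8, 263, 124 and 194 FPKM on chow and 73.6, 23.9, 23.5 and 4.98 FPKM on HFD (-2.80, SE 0.66, adjusted p = 0.0488 by limma). Of 14 adipokine genes tested, Lep was the 1 called higher and Cfd, Adipoq and Retn were the 3 called lower, and the list's median was -0.73. The call of Retn was lost when any 1 mouse but HFD 0 was left out (adjusted p 0.0659 to 0.141). In RNA from a whole pad, fewer adipocytes and less RNA per adipocyte cannot be told apart, and the same holds for every cell type below.

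**Figure D2:**
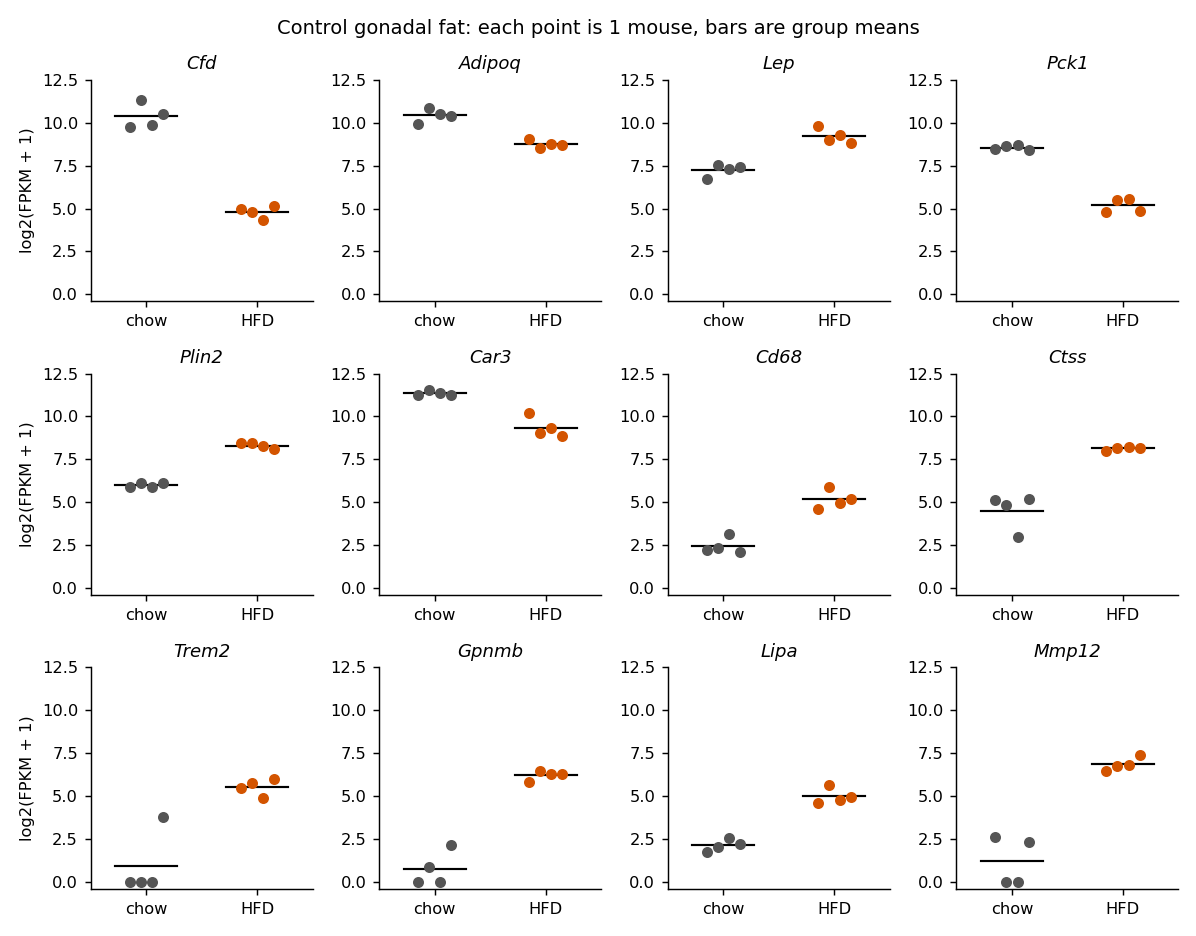
The vertical axis is log2(FPKM + 1) of 12 genes in the 8 control mice; points are mice (grey chow, orange HFD) and bars are the means of 4. Cfd, Adipoq, Pck1 and Car3 lay lower in every HFD mouse and Lep, Plin2, Cd68, Ctss, Trem2, Gpnmb, Lipa and Mmp12 higher, with chow 3 at 13 FPKM the 1 chow mouse in which Trem2 was above 0.

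Some genes of lipid synthesis were called lower and a lipid droplet gene higher. Pck1, the phosphoenolpyruvate carboxykinase that makes glycerol for triglyceride in fat, was at 352, 394, 413 and 342 FPKM on chow and 26.9, 44.5, 46.2 and 27.7 FPKM on HFD (-3.37, SE 0.26, limma adjusted p = 0.000276). Plin2, a coat protein of small lipid droplets that is found in many cell types, was at 57.8, 68.8, 59.2 and 70.1 FPKM on chow and 351, 344, 307 and 270 FPKM on HFD (2.29, SE 0.22, limma adjusted p = 0.000646). Within each diet these 2 genes varied little from mouse to mouse, as the plot of single genes by mouse shows. Scd1, the desaturase that makes oleate, was at 2659, 4224, 2729 and 3182 FPKM on chow and 672, 1046, 1789 and 631 FPKM on HFD (-1.73, SE 0.34, limma adjusted p = 0.0221). Acaca, the acetyl-CoA carboxylase of fatty acid synthesis, fell from 10.6, 23, 9.26 and 16 FPKM to 3.23, 0.328, 1.27 and 1.74 FPKM, and Thrsp, a lipogenic regulator, from 93.4, 229, 161 and 206 FPKM to 73.7, 37.1, 28.8 and 20.3 FPKM. These 3 were the called genes, all lower, among 17 de novo lipogenesis genes tested (median -0.62, with 14 of 17 negative). Fasn, the fatty acid synthase, was not called: HFD 0 was at 16.8 FPKM, within the chow range of 10.7 to 22 FPKM, and the other HFD mice were at 4.24, 3.44 and 0.539 FPKM. The lipogenesis calls were fragile, as 0 of the 3 passed without chow 1, chow 3, HFD 1 or HFD 3 and 1 passed without chow 2 or HFD 2. Pck1 was the 1 called gene of 14 in triglyceride synthesis (median -0.43). Among 15 lipolysis and droplet genes (median -0.44), Plin2 rose and Pde3b, the phosphodiesterase through which insulin restrains lipolysis, fell from 77.7, 63.1, 98.5 and 54.1 FPKM to 16.6, 24.2, 35 and 21.5 FPKM (-1.57, limma adjusted p = 0.0292; 0.0501 to 0.0972 when any chow mouse, HFD 1 or HFD 3 was left out). Pnpla2, the triglyceride lipase of adipocytes, was at 32.3 to 76.2 FPKM on HFD and 49.2 to 139 FPKM on chow and was not called.

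Some other genes that are abundant in fat were called lower, while Cd36 (-0.41), Lpl (-0.40) and Cidec (-0.44), also abundant there, were not called. Car3, the carbonic anhydrase of adipocytes, was at 2389, 2982, 2622 and 2434 FPKM on chow and 1157, 524, 641 and 460 FPKM on HFD (-2.0, SE 0.29, limma adjusted p = 0.00511). Cyp2e1, a cytochrome P450 that oxidizes ethanol and ketones, was at 475, 1178, 455 and 620 FPKM on chow and 27.7, 47.7, 9.2 and 46.4 FPKM on HFD (-4.46, SE 0.51, limma adjusted p = 0.00159). Ces1d, a carboxylesterase that hydrolyses triglyceride, was at 153, 263, 197 and 145 FPKM on chow and 25.2, 34.1, 44.9 and 29.7 FPKM on HFD (-2.46, SE 0.29, limma adjusted p = 0.00176). With the uncertain Ugt1a6a, a glucuronosyltransferase that shares exons with its relatives, Cyp2e1 and Ces1d made up the 3 of 14 xenobiotic and carboxylesterase genes called, all lower (median -1.16). The call of Ugt1a6a was lost when any 1 mouse but HFD 2 was left out (limma adjusted p 0.0702 to 0.138). Of 21 antioxidant and glutathione transferase genes, 3 were called lower and 0 higher (median -0.72). Gpx3, the secreted glutathione peroxidase, was at 140, 125, 200 and 129 FPKM on chow and 62, 44.3, 34.7 and 53.7 FPKM on HFD (-1.60, SE 0.28, limma adjusted p = 0.0134). Gsta3, a glutathione transferase, was at 97.3, 368, 151 and 194 FPKM on chow and 16.7, 60.8, 26.1 and 55.5 FPKM on HFD, and Gsta4, which conjugates the lipid aldehyde hydroxynonenal, was at 3.67, 8.1, 22.2 and 13 FPKM on chow and listed at 0 in all 4 HFD mice. Without chow 2, 1 of the 3 passed: Gpx3 had an adjusted p of 0.0512, and Gsta3 also lost its call without chow 1, chow 3, HFD 0 or HFD 2 (limma, 0.059 to 0.0891). Ghr, the growth hormone receptor, was at 548, 577, 437 and 464 FPKM on chow and 214, 144, 237 and 114 FPKM on HFD (-1.56, SE 0.27, limma adjusted p = 0.0134; 0.0613 without the intensity trend and 0.0544 with the replicate number as a block). Retnla, a secreted resistin-like protein, was at 160, 91.6, 124 and 137 FPKM on chow and 41.5, 28.5, 27.6 and 7.45 FPKM on HFD (-2.43, limma adjusted p = 0.0207; 0.0608, 0.0637 and 0.0627 without chow 0, 2 and 3). Car3, Ghr and Retnla belong to no list used here and were chosen after their values were seen.

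Mitochondrial lists had mostly negative values. Of 24 genes of branched-chain amino acid breakdown, by which adipocytes turn leucine, isoleucine and valine into carbon for lipid, 4 were called lower (against 1.12% of all genes tested) and 0 higher, and 23 of 24 were negative (median -1.10). Ivd, the isovaleryl-CoA dehydrogenase of leucine breakdown, was at 15.8, 20.4, 13.9 and 15.3 FPKM on chow and 4.06, 3.58, 5.72 and 2.56 FPKM on HFD (-1.83, SE 0.38, limma adjusted p = 0.0307). Bckdhb, a subunit of the branched-chain ketoacid dehydrogenase, was at 7.58, 16, 34.4 and 11.4 FPKM on chow and 2.04, 2.56, 2.27 and 0 FPKM on HFD (-2.71, limma adjusted p = 0.0387). The diets did not overlap in either gene, and HFD was lower without overlap in 9 of the 24 (against 4.74% of all genes tested). The other called members, Aldh6a1 of valine breakdown (-1.47) and Mccc1 of leucine breakdown (-1.86), share exons with neighbouring genes and are uncertain. Mcee was the member with a positive value: chow 2 was at 3.99 FPKM, the other chow mice were listed at 0, and it was called higher without chow 2 (limma adjusted p = 0.0334). Of the 4 calls, that of Bckdhb was kept without chow 0, those of Ivd and Aldh6a1 without HFD 2 and those of Ivd, Mccc1 and Aldh6a1 without HFD 0, and 0 were kept without any other mouse (limma adjusted p 0.0524 to 0.134 where lost). Of 21 genes of the tricarboxylic acid cycle limma called 0, with 6 at an unadjusted p under 0.05 (against 15% of all genes tested), and 19 were negative (median -0.76). Sdha, the catalytic subunit of succinate dehydrogenase, illustrates the size, at 102, 147, 105 and 119 FPKM on chow and 57.2, 69.8, 66.9 and 83.4 FPKM on HFD (limma adjusted p = 0.157). Respiratory chain subunits encoded in the nucleus had 0 of 63 called by limma, and 1 called lower without HFD 0. Of the 63, 10 were at an unadjusted p under 0.05, close to the share over all genes, and 52 were negative (median -0.57). Fatty acid oxidation had 0 of 20 called, 4 at an unadjusted p under 0.05 and 13 negative (median -0.21). No gene was called by limma among 14 of insulin signalling and glucose uptake, 4 of them at an unadjusted p under 0.05 (median -0.55). There Insr, the insulin receptor, was at 8.84, 9.15, 13.5 and 10.5 FPKM on chow and 3.22, 3.75, 3.22 and 2.67 FPKM on HFD, without overlap (adjusted p = 0.0849), and Slc2a4, the insulin-regulated glucose transporter, overlapped between diets. The adipogenic transcription factors gave 0 limma calls of 9, with 3 at an unadjusted p under 0.05 (median -0.49). Without HFD 3, 1 of these factors was called lower. Leaving the 10 most abundant genes out of the scaling moved the median of all genes to -0.101, so list medians within that distance of 0 carry no direction.

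Among macrophage markers every call was a rise. Of 20 in the list, 18 were tested (Aif1 and Spi1 were too low), 9 were called higher and 0 lower (median 2.02), and 12 had no overlap with HFD higher, against 2.02% called higher and 5.42% without overlap and higher over all genes tested. Summed over the list, FPKM was 311.7, 354.2, 261.4 and 336.7 on chow and 1389, 1478, 1092 and 1351 on HFD. Lyz2, the lysozyme of macrophages and its most abundant member, was at 104, 105, 98.5 and 134 FPKM on chow and 392, 408, 216 and 411 FPKM on HFD (1.65, SE 0.27, limma adjusted p = 0.00964). Tyrobp, the adaptor that signals for TREM2 and other receptors, was at 13.9, 15.8, 6.75 and 13.7 FPKM on chow and 303, 118, 144 and 124 FPKM on HFD (3.62, SE 0.39, limma adjusted p = 0.00112). Cd68, a lysosomal glycoprotein used to stain macrophages, was at 3.72, 4, 8.06 and 3.32 FPKM on chow and 23.8, 58.7, 30.2 and 36 FPKM on HFD (2.71, SE 0.41, limma adjusted p = 0.00602). All 4 HFD mice exceeded all 4 chow mice in each of the 3 genes. The complement gene C1qb (1.94) and its partner C1qc (1.93) rose with similar size, while C1qa overlapped and was not called. Cybb, the membrane subunit of the phagocyte oxidase, rose by 2.39, and Fcgr1, an immunoglobulin receptor, was listed at 0 in all chow mice and at 6.72, 3.85, 4.64 and 1.29 FPKM on HFD. Adgre1, the gene of F4/80, was at 4.16, 3.06, 0 and 3.67 FPKM on chow and 10.5, 48.9, 13.1 and 42.5 FPKM on HFD (2.95, SE 0.69, limma adjusted p = 0.0463). Its call was lost when any 1 mouse but HFD 0 was left out (0.0643 to 0.132), that of Fcgr1 when any 1 mouse but HFD 3 was left out (0.0615 to 0.091) and that of Cybb without chow 1, chow 2, HFD 1, HFD 2 or HFD 3 (limma adjusted p 0.0507 to 0.0608). Csf1r, the receptor for the growth factor on which macrophages depend, shares exons with Hmgxb3 and was not called: HFD 0 was at 87.2 FPKM, and the other HFD mice, at 43.2, 46.8 and 50.3 FPKM, were close to the 37.9 to 46.5 FPKM of the chow mice. The part of macrophage content in the falls of adipocyte genes was not tested.

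Lipid-associated macrophage genes gave the largest share of calls among the lists with at least 5 genes tested. All 18 were tested and positive, and 12 were called higher (against 2.02% of all genes tested) and 0 lower (median 2.42), with 9 to 11 called when any 1 mouse was left out. The list's summed FPKM was 829.6, 1467, 958.1 and 1292 on chow and 4021, 3108, 2426 and 3099 on HFD, and its most abundant gene, Lgals1, was not called (0.45). Trem2, the lipid-sensing receptor that defines these cells, was listed at 0 in chow 0, 1 and 2 and at 13 FPKM in chow 3, and was at 43.6, 53.6, 28.8 and 62.6 FPKM on HFD (4.58, SE 0.82, limma adjusted p = 0.0145). Gpnmb, a transmembrane glycoprotein of lipid-laden macrophages, was at 0, 0.826, 0 and 3.42 FPKM on chow and 55.8, 85.8, 76.5 and 76.7 FPKM on HFD (5.45, SE 0.51, limma adjusted p = 0.000646). Mmp12, the macrophage elastase, was at 5.19, 0, 0 and 3.96 FPKM on chow and 86.3, 109, 109 and 171 FPKM on HFD (5.62, SE 0.64, limma adjusted p = 0.00159). Each of these 3 genes was listed at 0 in at least 2 chow mice. Atp6v0d2, a proton pump subunit of osteoclasts and macrophages, went from 0, 0, 1.28 and 2.02 FPKM to 82.4, 73.7, 81.5 and 67.5 FPKM (5.57, SE 0.45, limma adjusted p = 0.000327). Lgals3, the carbohydrate-binding galectin 3, was at 35.9, 113, 49.8 and 64.9 FPKM on chow and 1373, 816, 478 and 823 FPKM on HFD (3.74, SE 0.40, limma adjusted p = 0.00112). Itgax, which encodes CD11c, was at 0.723, 0, 0 and 0 FPKM on chow and 8.51, 26.3, 14 and 15.6 FPKM on HFD. No chow mouse reached 1 FPKM, so Itgax met the filter only through the HFD mice, and it stays in the list count. Clec7a, the beta-glucan receptor dectin-1, rose by 3.29. Fabp5, a fatty acid binding protein, is also a member of the fatty acid uptake list. It was at 39.4, 76.9, 33.6 and 48.7 FPKM on chow and 205, 149, 175 and 136 FPKM on HFD (1.78, limma adjusted p = 0.0119). Spp1, the secreted matrix protein osteopontin, was called at low values, 4.48 to 7.87 FPKM on HFD against 2.44 FPKM in chow 0 and 0 in the other chow mice, and its call was lost when any 1 mouse but chow 0 was left out (limma adjusted p 0.0685 to 0.123). Cd9, a tetraspanin of the same cells, was not called: HFD 3, at 3.56 FPKM, was below chow 0, at 6.56 FPKM. The list also holds genes of the lysosome, proton pump, matrix and cholesterol lists, which are therefore not separate sets.

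Resident macrophage markers gave no call. Of 14, 10 were tested and 0 were called by limma, with 6 at an unadjusted p under 0.05, 5 positive and 5 negative. The list's median was 0.20, and -0.21 to 0.46 when any 1 mouse was left out. Lyve1, which marks perivascular macrophages, was at 5.87, 11.6, 1.09 and 1.95 FPKM on chow and at 0, 6.53, 1.21 and 0 FPKM on HFD. The 6 went both ways: Folr2, Cd163, Clec10a and Mrc1 were positive, and Gas6 (-1.67, limma adjusted p = 0.149) and Cd209f (-1.72, 0.297) negative. Gas6, whose exons overlap Tmem255b, was lower on HFD without overlap, at 22.7, 19.3, 11.2 and 12.1 FPKM on chow and 5.63, 11.1, 2.32 and 1.81 FPKM on HFD. Cd163, the haemoglobin scavenger receptor, was at 21.9, 20.2, 14.8 and 13.5 FPKM on chow and 18.2, 93.1, 49.9 and 43.3 FPKM on HFD. Folr2, a folate receptor and the list's most abundant gene, was at 14.1, 14.5, 12.3 and 16.5 FPKM on chow and 19.4, 67.1, 54.9 and 79.3 FPKM on HFD (limma adjusted p = 0.0664). In both of the latter HFD 0 stood near the chow mice and the other 3 HFD mice above them, and without HFD 0 these were the 2 genes called, at 1.70 for Cd163 (limma adjusted p = 0.0402) and 2.14 for Folr2 (0.00684). Folr2, whose exons overlap Gm10602 and which is therefore uncertain, was also called with quantile scaling, upper-quartile scaling or array weights (limma adjusted p 0.0462, 0.0491 and 0.0299). The diet effect on this list was not tested against that on the lipid-associated list.

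**Figure D3:**
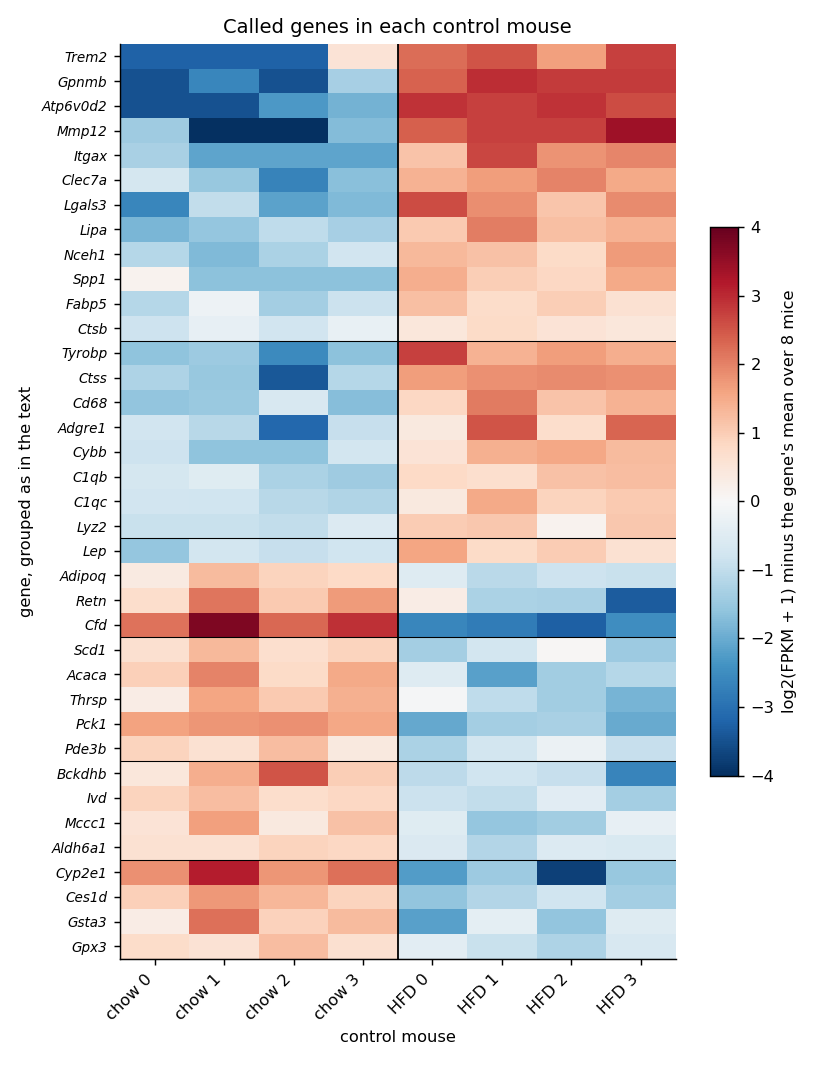
Colour gives log2(FPKM + 1) minus the gene's mean over the 8 control mice for 37 called genes (vertical axis, grouped by role) in each mouse (horizontal axis). Macrophage and lipid-associated macrophage genes are above their mean in the HFD mice and, with exceptions such as Trem2 in chow 3, below it on chow; adipocyte genes other than Lep show the reverse, with Cfd highest in chow 1 at 2595 FPKM.

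Lysosomal genes rose in part. Of 38 tested, 10 were called higher (against 2.02% of all genes tested) and 0 lower, and 31 were positive (median 0.88); 6 were called without HFD 1 or without HFD 3. Summed FPKM was 1640, 2417, 1552 and 1919 on chow and 6274, 5298, 4194 and 4633 on HFD. Of these sums Ctsa, whose exons overlap Neurl2 and Pltp, held 250, 309, 259 and 256 FPKM on chow and 2453, 1549, 1159 and 1239 FPKM on HFD. Ctss, a cathepsin that trims the class II chaperone in antigen-presenting cells, was at 33.6, 27.3, 6.76 and 35.5 FPKM on chow and 256, 287, 299 and 288 FPKM on HFD (3.62, SE 0.46, limma adjusted p = 0.00234). Lipa, the lysosomal acid lipase that frees cholesterol and fatty acids, was at 2.35, 3.1, 4.95 and 3.74 FPKM on chow and 23.8, 48.4, 26.5 and 30.2 FPKM on HFD (2.85, SE 0.38, limma adjusted p = 0.00324). Lgmn, the asparaginyl protease legumain, was at 3.25, 11.6, 9.54 and 9.81 FPKM on chow and 60.1, 75.6, 73.9 and 66.9 FPKM on HFD (2.98, SE 0.39, limma adjusted p = 0.00264). The HFD values of Ctss and Lgmn lay within a narrow range far above chow. Psap, the precursor of the saposins that present sphingolipids to their hydrolases, was at 94.8, 112, 95.8 and 111 FPKM on chow and 325, 396, 232 and 242 FPKM on HFD (1.49, SE 0.25, limma adjusted p = 0.0099). Ctsk, a collagen-cleaving cathepsin, was called at 4.53 and lost the call without chow 2, HFD 1, HFD 2 or HFD 3 (limma adjusted p 0.0576 to 0.0747), and Gusb, the beta-glucuronidase, at 1.59 and lost it when any chow mouse, HFD 1 or HFD 3 was left out (0.0829 to 0.113). The most abundant member, Ctsa (2.51), and Ctsz, Ctsb and Grn were also called, but their exons overlap those of other genes. Of these, Ctsb lost its call when any 1 mouse but HFD 0 was left out (limma adjusted p 0.0553 to 0.101) and Grn without chow 0, chow 1, HFD 0, HFD 1 or HFD 3 (0.053 to 0.0632). Of 17 subunits of the proton pump that acidifies the lysosome 2 were called higher, Atp6v0d2 and Atp6v1b2 (median 0.58); Atp6v1b2, at 1.36, was lost when any 1 mouse but HFD 0 was left out (limma adjusted p 0.0533 to 0.12). Among 11 cholesterol handling genes (median 0.68) the 2 called, both higher, were Nceh1, a cholesteryl ester hydrolase of macrophages, and Msr1, the class A scavenger receptor. Nceh1 rose by 2.46 (limma adjusted p = 0.0146, and 0.0506 without HFD 3). Msr1 was at 0.748 FPKM in chow 1 and listed at 0 in the other chow mice, so it met the filter only through the HFD mice. Its call was lost when any 1 mouse but HFD 0 was left out (limma adjusted p 0.0669 to 0.113).

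Further called genes outside the lists are known from phagocytes. They were chosen after their values were seen and all were higher on HFD, so they do not describe phagocyte genes that were not chosen. Retnla, given above and also outside the lists, was called lower (-2.43). Mpeg1, the pore-forming perforin-2 of macrophages, was at 9.62, 8.71, 5.54 and 5.52 FPKM on chow and 72.7, 107, 91.1 and 87.8 FPKM on HFD (3.46, SE 0.31, limma adjusted p = 0.000614). Capg, an actin-capping protein, was at 5.4, 3.53, 0 and 2.71 FPKM on chow and 81.6, 89.2, 41.9 and 86.2 FPKM on HFD (4.50, SE 0.57, limma adjusted p = 0.00242). Mfge8, a secreted protein that tethers dying cells to phagocytes, was at 28.9, 36.8, 35.4 and 31.6 FPKM on chow and 220, 125, 145 and 175 FPKM on HFD (2.27, SE 0.26, limma adjusted p = 0.00163). Dcstamp, which macrophages need to fuse into multinucleated cells, was listed at 0 in all chow mice and at 3.72, 4.53, 4.76 and 4.94 FPKM on HFD. Cd44, a receptor for osteopontin and hyaluronan, was at 5.95, 3.32, 0.552 and 0.48 FPKM on chow and 13, 29.3, 18.7 and 16.5 FPKM on HFD (2.76), but lost its call when any 1 mouse but chow 0 and HFD 0 was left out (limma adjusted p 0.0537 to 0.0955).

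Calls among genes for signals between leukocytes were all higher, as were 2.02% of all genes tested. Of 10 chemokine ligands tested 3 were called higher and 0 lower, and 1 was called without chow 3, HFD 1 or HFD 3. The list's median was 0.32, and 0.03 to 0.65 when any 1 mouse was left out. Ccl6, a ligand that mouse macrophages make in quantity, was at 73.1, 73, 49.7 and 66 FPKM on chow and 162, 203, 124 and 146 FPKM on HFD (1.26, limma adjusted p = 0.028). The others were Ccl9 (2.91) and Cxcl14, listed at 0 on chow and at 8.69, 18.2, 5.72 and 4.98 FPKM on HFD. The call of Ccl6 was lost when any 1 mouse but HFD 0 and HFD 2 was left out (0.0533 to 0.0909) and that of Ccl9 when chow 3 or any HFD mouse was left out (limma adjusted p 0.0524 to 0.0752). Ccl2, the main attractant of monocytes, was at 5.45, 4.95, 9.55 and 0 FPKM on chow and 8.04, 4.79, 0 and 0 FPKM on HFD and was not called. Cxcl10, whose exons overlap Art3, was at 106, 40.2, 30.9 and 39.7 FPKM on chow and 0, 24.2, 2.34 and 14.9 FPKM on HFD. Its values were lower on HFD without overlap, but it was not called (limma adjusted p = 0.123). Of 7 chemokine receptors 0 were called by limma, 1 at an unadjusted p under 0.05 (median 0.48). Without chow 2, 1 receptor was called higher. Il1rn, the interleukin-1 receptor antagonist, was the 1 called of 12 cytokine signalling genes (2.69), and its call was lost when any 1 mouse but chow 1 and HFD 0 was left out (limma adjusted p 0.0923 to 0.118); Tnf was listed at 0 except for 2.7 FPKM in HFD 3, and Il6 was listed at 0 in all 8 mice. The class II genes H2-Ab1 (1.49) and H2-Eb1 (1.14) were called among 6 tested, all positive (median 1.65), but H2-Ab1 kept its call only without HFD 2 and H2-Eb1 lost its call without any 1 of the 8 mice (limma adjusted p 0.0541 to 0.118). Class I genes gave 0 limma calls of 10 and 0 at an unadjusted p under 0.05 (median 0.40). Interferon-induced genes gave 2 calls of 16, both higher (median 0.18): Isg15, listed at 0 on chow and at 4.07, 6.35, 10.1 and 5.24 FPKM on HFD, and Ubd. Isg15 met the filter only through the HFD mice. Ubd, the ubiquitin-like modifier FAT10, was at 0, 0, 6.61 and 3.18 FPKM on chow and 291, 150, 108 and 97.1 FPKM on HFD. On the log2(FPKM + 1) scale its fold change of 5.96 (SE 0.69, limma adjusted p = 0.00162) was the largest rise among the genes named. The order depends on this scale, as the ratio of mean FPKM was 66.0 for Ubd and 92.3 for Atp6v0d2.

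Markers of other leukocytes were sparse. Il7r, a lymphocyte cytokine receptor, was listed at 0 in all chow mice and at 7.42, 5.95, 14.5 and 9.38 FPKM on HFD. It was the 1 called of 3 T and NK cell genes tested out of 16. Il7r met the filter only through the HFD mice, so this count does not describe the list. Of the mast cell proteases tested, 2 rose from low values: Mcpt4 was at 3.62, 0, 0 and 2.9 FPKM on chow and 16.2, 13.9, 10.2 and 21.3 FPKM on HFD, and Tpsb2 was listed at 0 on chow and at 2.8, 7.03, 5.63 and 11.5 FPKM on HFD. Tpsb2 met the filter only through the HFD mice. Cma1, listed at 0 on chow and at 7.96, 0, 7.13 and 26.3 FPKM on HFD, was not tested. Mcpt4 and Tpsb2 were the 2 called of 3 mast cell and eosinophil genes tested, a count that the filter sets in part. The third, the mast cell carboxypeptidase Cpa3, was at 2.36, 1.98, 0 and 2.04 FPKM on chow and 3.35, 0, 0 and 6.78 FPKM on HFD and was not called (0.04, limma adjusted p = 0.993), and Mcpt4 lost its call when any 1 mouse but chow 0 and chow 3 was left out (limma adjusted p 0.0541 to 0.0923). B cell and dendritic cell lists gave 0 limma calls of 3 and 0 of 4, with 1 and 2 at an unadjusted p under 0.05. None of 9 neutrophil markers could be tested: S100a8 was at 8.49 FPKM in HFD 0 and its partner S100a9 at 8.18 FPKM in chow 3, and each was listed at 0 in the other 7 mice.

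The medians of stromal lists lay on both sides of 0. Of 15 collagens 0 were called by limma, 6 were at an unadjusted p under 0.05 and 12 were positive (median 0.74); Col3a1, a fibrillar collagen, was at 26.7, 13.4, 21.7 and 22 FPKM on chow and 122, 40.7, 33.2 and 26.6 FPKM on HFD, led by HFD 0. Of 21 matrix remodelling genes (median 0.59), Mmp12 and the uncertain Adam8 were called. Among 16 fibroblast and progenitor genes (median -0.03), Lum, the collagen-binding proteoglycan lumican, was at 32.6, 23.3, 15.9 and 31.1 FPKM on chow and 94.5, 128, 187 and 131 FPKM on HFD (2.36, SE 0.32, limma adjusted p = 0.00369). Gsn, the actin-severing gelsolin, fell by 1.01, but this call was lost when any 1 of the 8 mice was left out (limma adjusted p 0.0507 to 0.128). Endothelial genes gave 0 limma calls of 11 (median 0.25) and smooth muscle and pericyte genes 0 of 7 (median 0.33), with 0 at an unadjusted p under 0.05 in both lists. When any 1 mouse was left out, these medians ran from -0.02 to 0.38 and from -0.09 to 0.44. Mesothelial genes were all negative, with 1 of 6 called lower (median -1.73), and their summed FPKM was 30.48, 45.43, 63.34 and 52.75 on chow and 4.871, 4.049, 7.524 and 36.29 on HFD. Gpm6a, the most abundant of them, was at 12.2, 10, 24.1 and 12.9 FPKM on chow and 0.76, 0.835, 3.65 and 4.15 FPKM on HFD (-2.34), a call lost when any 1 mouse but HFD 3 was left out (limma adjusted p 0.053 to 0.131). Upk3b, a defining uroplakin of the mesothelium, was at 8.65, 10.8, 13.1 and 15 FPKM on chow and at 0, 0, 2.46 and 5.86 FPKM on HFD, and was called when HFD 3 was left out (-3.07, limma adjusted p = 0.0331). How much mesothelium each piece of fat carried was not tested.

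**Figure D4:**
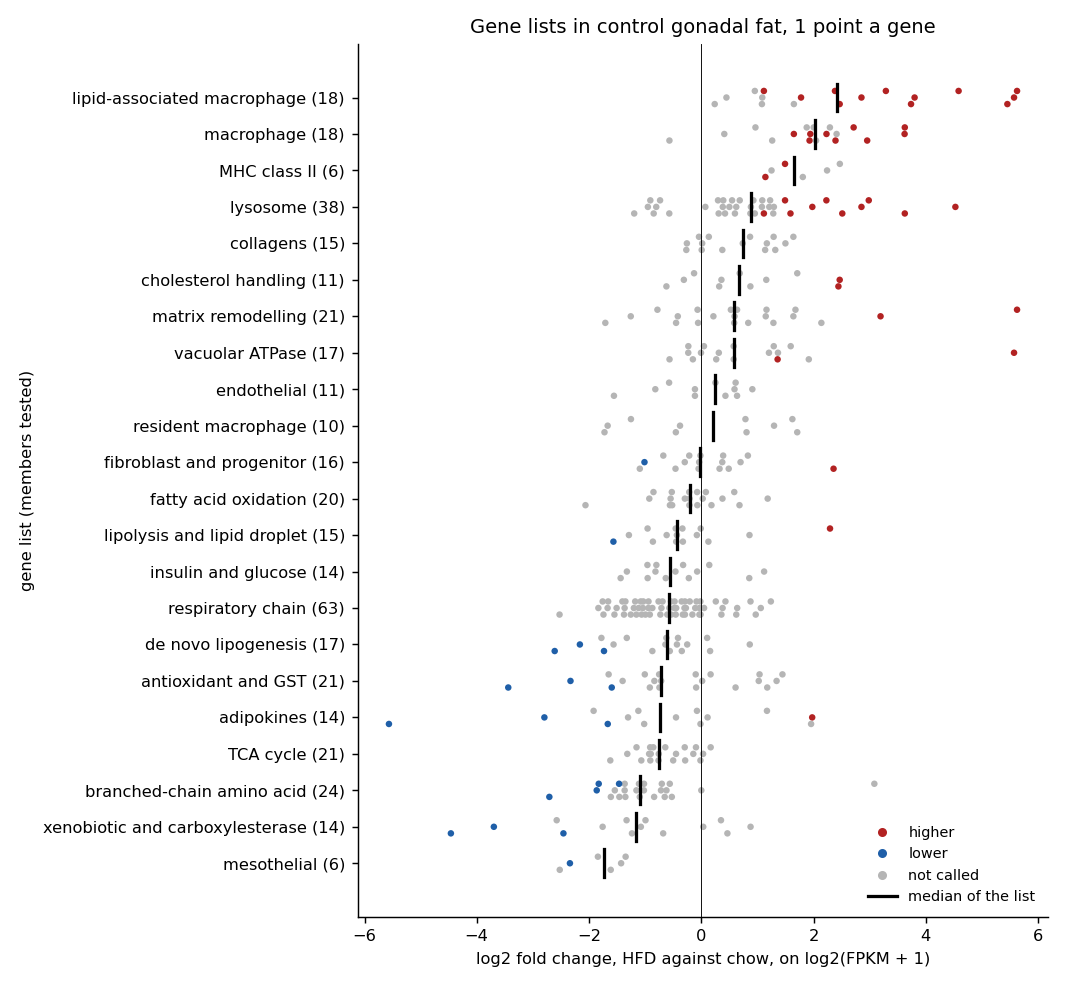
Each point is 1 tested gene of 22 lists (vertical axis, with the number tested), placed by its log2 fold change of HFD against chow on log2(FPKM + 1) in control mice (horizontal axis); red is called higher, blue called lower, grey not called, and the black bar is the list's median. Medians run from 2.42 for lipid-associated macrophage genes to -1.73 for mesothelial genes, against -0.022 over all genes tested.

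The plot of gene lists sets these groups side by side, to be read against 2.02% higher and 1.12% lower over all genes tested. Among stress and growth genes, 1 of 11 unfolded protein response genes was called, Atf3 (2.60), and 1 of 9 hypoxia genes, Vegfa, the vascular growth factor, which fell by 1.69. Both calls were weak, Atf3 losing its call when any 1 mouse but chow 3 was left out (limma adjusted p 0.0659 to 0.127) and Vegfa when any 1 of the 8 mice was left out (0.0524 to 0.119). Clock genes gave 0 limma calls of 10 (4 at an unadjusted p under 0.05, 8 negative, median -0.60), cell cycle genes 0 of 10 (3 unadjusted, 8 positive, median 0.77) and acute-phase genes 0 of 7 (3 unadjusted, median 0.01). The acute-phase median ran from -0.57 to 0.21 when any 1 mouse was left out. Nnat, an adipose expansion marker whose exons overlap a small RNA gene, was at 533, 627, 426 and 441 FPKM on chow and 141, 266, 128 and 191 FPKM on HFD (-1.52, limma adjusted p = 0.0166; 0.0551 without chow 1), the 1 called of 6 such markers (median 0.14). Fatty acid uptake gave 1 call of 15, Fabp5 (median 0.04), and without HFD 0 another gene of this list was called lower. The Mboat7 relatives and other lysophospholipid acyltransferases gave 0 of 7 by limma, with 0 at an unadjusted p under 0.05 (median 0.09). Sterol synthesis gave 1 of 17 (median 0.64), Fdft1, but exons of this gene overlap Ctsb. Of 38 cytosolic ribosomal protein genes 1 was called, Rpl37, listed at 0 on chow and at 11.1, 5.15, 14.3 and 9.72 FPKM on HFD (median 0.32).

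The 12 largest rises and 12 largest falls were taken by a rule that required the diets not to overlap. Among them several genes have little known function or share exons with a neighbour. Hist1h3c, a replication-dependent histone gene, was at 14.7, 25.3, 15.3 and 19.1 FPKM on chow and listed at 0 on HFD; the same holds for the unnamed gene models Gm5617, 2610016A17Rik and Gm10638, the last of which overlaps Siah1a. Golgb1, the Golgi protein giantin, was at 49.1, 119, 67.7 and 117 FPKM on chow and 1.36, 0, 12.4 and 1.42 FPKM on HFD (-4.82, SE 0.71, limma adjusted p = 0.00524). Sfxn1, the mitochondrial serine transporter, was at 11.3, 39.5, 19.6 and 27.7 FPKM on chow and 2.82, 0, 0 and 1.24 FPKM on HFD (-3.77, SE 0.59, limma adjusted p = 0.0075). Fam13a, which overlaps Gm45061, fell from 23, 39.4, 21.9 and 12.3 FPKM to 0, 0, 1.17 and 1.94 FPKM. The noncoding RP23-118B13.1 lies antisense to Adrb3, the beta-3 adrenergic receptor, and was at 934, 299, 499 and 353 FPKM on chow and 22.3, 26.6, 49.2 and 13.8 FPKM on HFD, while Adrb3 itself was not called. Gm38244 (-4.86), a model awaiting experimental support, and Gm14453 (-4.05), antisense to Rbm38, complete the falls; Gm14453 was lost without chow 2, chow 3, HFD 1 or HFD 2 (limma adjusted p 0.0507 to 0.0655). On the rising side, Tesk1 (4.57) shares exons with the leukocyte gene Cd72, Bcl2a1b with Gm29094, and RP23-292K4.2 (4.69) with Gm9939. Gm29439 lies antisense to the B cell gene Cd22 and was listed at 0 on chow, and Gm37787 (4.57) lies antisense to Slamf7 and lost its call when any 1 mouse but chow 0 was left out (limma adjusted p 0.0501 to 0.11). Gm14834, a processed pseudogene listed at 0 on chow, was at 39.6, 15.5, 42.9 and 25.6 FPKM on HFD. Reads of such pairs cannot be assigned to 1 partner here. Rfc2, for example, a replication factor named after its values were seen, was at 50.3, 27.4, 21.1 and 38.3 FPKM on chow and 667, 792, 594 and 908 FPKM on HFD, and its exons overlap the leukocyte adaptor gene Lat2.

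Promoter sequences were searched for 3 short motifs on both strands, picked after the values were seen. The window ran from 250 bases before to 50 after the start of each gene in RefSeq (GRCm38.p6), and 7021 of the 10404 genes tested, 133 of the 210 higher and 68 of the 117 lower genes had an entry. GAGGAAGT, the core that the myeloid factor encoded by Spi1 prefers, was in 3.28% of 27025 promoters, in 3.05% of genes tested, in 12 of 133 higher genes (9.02%) and in 3 of 68 lower genes (4.41%). CACGTG, the E-box read by regulators of lysosomal genes, was in 7.24% of all promoters, in 10.4% of genes tested, in 9 of 133 higher genes (6.77%) and 9 of 68 lower genes (13.2%). It was in 8 of 31 lysosomal genes (25.8%) and 4 of 11 proton pump genes (36.4%), none of which was called. CACGTG was also in 3 of 14 lipid-associated macrophage genes (21.4%), of which Nceh1 was called higher and Ctsd and Ctsl were not called. It was in 0 of 12 macrophage genes. AGGTCA, the hexamer of nuclear receptors, was in 16% of all promoters, in 12.4% of genes tested, in 28 of 133 higher genes (21.1%) and in 9 of 68 lower genes (13.2%). A match describes letters only. Below are the promoters of 4 called genes, chosen after the search to show each motif in place and 1 window without any; capitals mark matches in either direction. Mmp12 (chr9:7344147-7344446, plus strand, the first of 2 entries) holds GAGGAAGT, Ctss (chr3:95526536-95526835, plus strand) holds GAGGAAGT and AGGTCA, Plin2 (chr4:86670010-86670309, minus strand) holds CACGTG and AGGTCA, and Cfd (chr10:79890603-79890902, plus strand) holds none of the 3.
Mmp12: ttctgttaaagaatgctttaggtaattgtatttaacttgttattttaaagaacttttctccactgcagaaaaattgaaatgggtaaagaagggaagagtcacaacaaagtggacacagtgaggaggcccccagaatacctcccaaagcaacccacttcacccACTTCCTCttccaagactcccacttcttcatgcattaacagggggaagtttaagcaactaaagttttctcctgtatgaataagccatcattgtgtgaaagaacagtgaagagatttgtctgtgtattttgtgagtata
Ctss: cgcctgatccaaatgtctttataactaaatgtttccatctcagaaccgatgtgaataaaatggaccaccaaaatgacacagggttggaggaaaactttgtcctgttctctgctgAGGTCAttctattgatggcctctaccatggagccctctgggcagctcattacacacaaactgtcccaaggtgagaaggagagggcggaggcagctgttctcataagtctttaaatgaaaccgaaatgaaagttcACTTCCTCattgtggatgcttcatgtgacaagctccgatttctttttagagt
Plin2: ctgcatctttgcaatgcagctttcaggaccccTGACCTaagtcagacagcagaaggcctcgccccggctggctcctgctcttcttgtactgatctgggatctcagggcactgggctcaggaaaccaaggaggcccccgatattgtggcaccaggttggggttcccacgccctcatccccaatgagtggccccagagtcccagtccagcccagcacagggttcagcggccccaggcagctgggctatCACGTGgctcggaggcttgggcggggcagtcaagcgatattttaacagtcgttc
Cfd: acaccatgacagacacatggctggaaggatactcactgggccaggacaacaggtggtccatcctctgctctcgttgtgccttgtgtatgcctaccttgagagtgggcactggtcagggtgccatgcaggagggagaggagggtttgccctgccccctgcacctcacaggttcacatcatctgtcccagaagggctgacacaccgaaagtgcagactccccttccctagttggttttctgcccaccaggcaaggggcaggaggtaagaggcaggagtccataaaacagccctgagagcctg
Read with the values above, Mmp12 and Ctss rose by 5.62 and 3.62 and Plin2 by 2.29. Among macrophage genes GAGGAAGT was in 3 of 12, of which C1qc and Ctss were called and Cd53 was not, and among lipid-associated genes in 3 of 14, namely Spp1, Mmp12 and Nceh1, all called. No entry was found for Tyrobp, Atp6v0d2, Ces1d or Atp6v1b2.

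The diet effect was then set beside that in ASKO mice, in which no mouse is shared. Of 10482 genes tested there, 234 were higher (2.23%) and 124 lower (1.18%). Of the 327 genes called in controls, 306 were tested in ASKO mice, 294 had the same sign, 144 were called the same way and 0 the opposite way. These genes were selected by their change in controls. Over all 9433 genes tested in both genotypes, the Pearson correlation of the log2 fold changes was 0.49. The 144 shared calls are 44% of the control calls and 40.2% of the ASKO calls, with 103 of the 195 higher genes and 41 of the 111 lower genes tested in both. The count was 92 without control chow 2, 91 without control HFD 1, and 86, 88 and 93 without ASKO HFD 0, 1 and 3. Cfd had a log2 fold change of -6.04 in ASKO mice against -5.56 in controls, Gpnmb 6.72 against 5.45, Mmp12 6.46 against 5.62 and Pck1 -2.50 against -3.37. By list, the ASKO median was 3.45 for lipid-associated macrophage genes (13 higher), 2.08 for macrophage genes (9 higher), 1.17 for lysosomal genes (14 higher) and -1.06 for branched-chain amino acid genes (0 called). Mfge8, Scd1 and Ivd were called in controls and not in ASKO mice, but a call in 1 genotype does not show a difference between them. The limma interaction of genotype and diet, over 13148 genes in all 16 mice, called 0 genes, with 828 at an unadjusted p under 0.05 (6.3%) and a lowest adjusted p of 0.375. Leaving out ASKO chow 2 gave 1 interaction call, Rps25-ps1 (limma adjusted p = 0.00928), a ribosomal pseudogene that was at 213 FPKM in that mouse and listed at 0 in the other 3 of its group. Leaving out ASKO HFD 3 gave 1 other, Hist1h3c (limma adjusted p = 0.00566), which was at 24.8 FPKM in that mouse and listed at 0 in the other 7 ASKO mice.

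**Figure D5:**
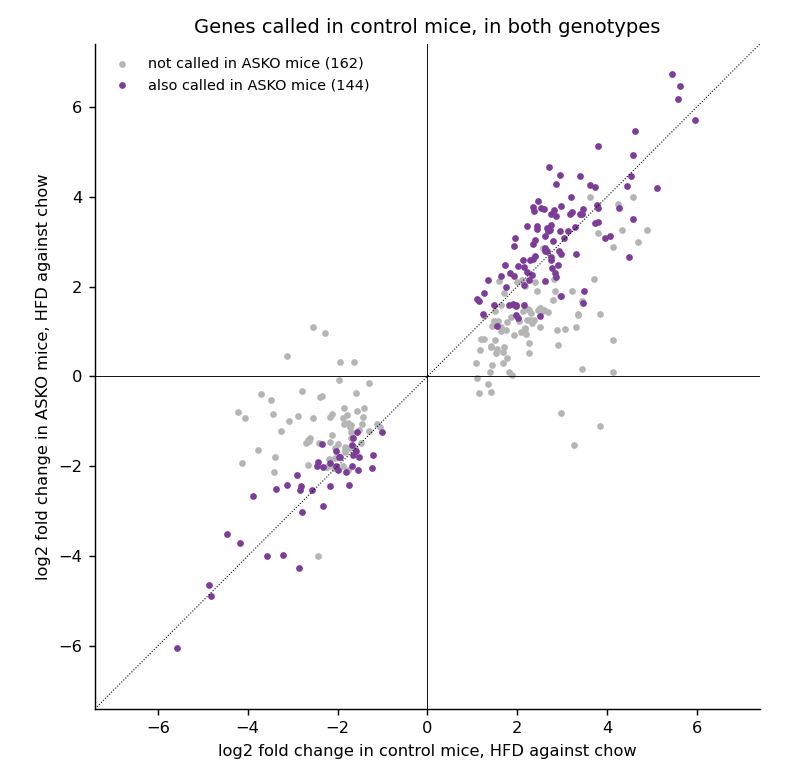
Each point is 1 of the 306 genes called in control mice and tested in ASKO mice, by its log2 fold change of HFD against chow on log2(FPKM + 1) in control mice (horizontal axis) and in ASKO mice (vertical axis); the dotted line marks equal values. The 144 genes also called in ASKO mice are purple and the others grey, and 294 of the points lie on the same side of 0 on both axes.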

How the data were processed

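Gonadal fat of 16 male mice was sequenced by the submitters from directional mRNA libraries, 1 library per mouse, with 4 mice per genotype and diet. The authors aligned reads to mm10 with STAR and deposited 1 table of FPKM values per gene made with Cufflinks and Cuffdiff, per their processing notes. The table holds 19373 genes, of which 19289 (99.6%) matched GENCODE M21 by identifier, and 22 names that a spreadsheet had turned into days were replaced. Whether reads were counted by strand was not given in the sources used here, so antisense genes are uncertain.

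Groups came from the genotype and treatment labels. Values were taken as log2(FPKM + 1) for genes that reached 1 FPKM in 4 or more of the 8 control mice. They were compared by limma 3.58.1 (R 4.3.3) with an intensity trend and Benjamini-Hochberg adjustment, and were called at an adjusted p under 0.05 and an absolute log2 fold change over 0.5. The same fit was run in the 8 ASKO mice and an interaction fit in all 16. Mboat7 was compared by an exact permutation test. Scripts used Python 3.11.15, pandas 2.3.3, numpy 2.4.6 and matplotlib 3.10.9, and the limma steps were tested on simulated data. Depth was estimated from low values as the report describes.

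Genes were named by rule: Mboat7, the 12 largest rises and 12 largest falls among called genes whose diets did not overlap and whose higher group averaged at least 10 FPKM, and members of the gene lists. The mice and lists were chosen with earlier results of these data known. Genes outside the rule, the list members shown, the 3 motifs, the printed promoters, the allowance of 200 bases and the counts over genes without exon overlap were chosen after seeing the data.

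Alternatives were a pseudocount of 0.1, no filter or a filter of 5 FPKM, quantile or upper-quartile scaling, scaling without the 10 most abundant genes, all 16 mice in 1 fit, no trend, robust estimation, array weights, no fold change limit, a block for the replicate number, and the omission of each mouse in turn.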

Additional observations from a re-analysis of the deposited data

Results flagged for a closer look

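Within each diet the mouse farthest from the other 3 was sought for each named gene and library measure of the control mice, by its gap to the nearest other mouse as a share of the group's range (Dixon's test). This marked 29 of 234 groups, while chance alone would mark about 1 in 20, or 12; a further 14 groups had equal values and could not be judged. Groups with 3 mice listed at 0 always meet the limit.

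Among chow mice with the other 3 listed at 0, the mouse set apart held 13 FPKM for Trem2 (chow 3), 0.723 for Itgax (chow 0), 2.44 for Spp1 (chow 0), 0.748 for Msr1 (chow 1), 1.69 for Il1rn (chow 1), 3.99 for Mcee (chow 2), 3.1 for Atf3 (chow 3), 4.52 for Bcl2a1b (chow 1) and 3.31 for RP23-292K4.2 (chow 0). On HFD the same held for Ugt1a6a at 11 FPKM in HFD 2 and Gm14453 at 9.59 FPKM in HFD 3.

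Single chow mice lay above the others for Cd68 (8.06 FPKM in chow 2 against 3.32 to 4), Tesk1 (8.54 FPKM in chow 3 against 0.756 to 1.98) and Gm38244 (396 FPKM in chow 0 against 123 to 154), and chow 2 lay below for Cpa3 (0 against 1.98 to 2.36 FPKM). Chow 1 stood above for Ctsa (309 FPKM against 250 to 259), Slc2a4 (19.8 FPKM against 7.33 to 7.67) and Pnpla2 (139 FPKM against 49.2 to 55.6). The same mouse had the highest summed FPKM on chow (772406 against 611890 to 636209) and the highest share in its top 10 genes (41.9% against 35.4% to 35.8%).

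HFD 0 stood above for Tyrobp (303 FPKM against 118 to 144), Csf1r (87.2 FPKM against 43.2 to 50.3), Ctsz (473 FPKM against 238 to 270) and Col3a1 (122 FPKM against 26.6 to 40.7), and it had the most estimated fragments (431000 against 320000 to 327000). HFD 2 stood below for Lyz2 (216 FPKM against 392 to 411) and Capg (41.9 FPKM against 81.6 to 89.2), and above for Golgb1 (12.4 FPKM against 0 to 1.42). HFD 1 stood below for Aldh6a1 (11.8 FPKM against 17.9 to 18.5).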

How the results depend on the processing

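The 210 higher, 117 lower and 144 shared calls were recomputed under each alternative, and the cause of a shift was not tested unless stated. With no filter on low values, where 17584 genes were tested, the counts were 129, 64 and 70. Without the intensity trend 72 genes were lower, and with a pseudocount of 0.1 the shared calls numbered 90. Counting only genes whose exons overlap no other listed gene, an alternative chosen after seeing the data, left 127 higher and 68 lower, by construction fewer genes. Leaving out 1 mouse, which by construction lowers the number of samples, gave 110 to 186 higher, 48 to 105 lower, 86 to 134 shared and 0 to 1 interaction calls, and the Mboat7 difference ran from -1.5 to -0.91. Its exact p was then 0.0571 to 0.229, where 3 against 4 mice cannot go below 0.0571, a limit met without chow 2, when the diets did not overlap. With a pseudocount of 0.1 the difference was -2.63 (exact p 0.114). All 327 calls kept their sign in every alternative in which they could be tested (268 with the filter of 5 FPKM), and the share of calls that were higher stayed between 57.6% and 71.9%. Over all genes tested, deviations of chow and HFD mice with the same replicate number correlated at -0.06, 0.02, -0.02 and 0.04 for numbers 0 to 3. No pairing by number was seen at that level, and pairing that acts on only some genes was not tested. With the number as a block 91 genes were higher, 41 lower, 51 shared and 0 in the interaction. Of the 118 named genes 95 were called; 49 of these lost the call in some alternative, 38 of them on leaving out some mouse, and 0 changed direction. The other 11 lost it with the replicate block (C1qb, Fabp5, Tpsb2, Adam8, Ctsz, Ghr, Dcstamp and Sfxn1, limma adjusted p 0.0522 to 0.0687), without the trend (Psap 0.0556, Ghr 0.0613) or with all 16 mice in 1 fit (Isg15 0.0844, Rpl37 0.0605). Of those not called, Alb ranged from -1.44 without chow 3 to 0.2 without HFD 0 (limma adjusted p 0.963), a reversal. Cpa3 lay near 0 and turned negative with a pseudocount of 0.1 (-0.55), without the 10 most abundant genes in the scaling (-0.01) and without chow 2 (-0.37), HFD 0 (-0.25) or HFD 3 (-0.53), and it was highest at 0.46 without HFD 1 or HFD 2 (limma adjusted p 0.816 or more in all of these). Folr2 was called with quantile (limma adjusted p 0.0462) or upper-quartile scaling (0.0491) and array weights (0.0299). Mcee was called with all 16 mice in 1 fit (0.00941). Depth limits all of this, since 1 fragment on 1 kb was worth 2.32 to 3.23 FPKM.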
